A study of Mus musculus with 14 samples.

Results

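Microglia are the resident macrophages of the brain, and 33 genes that mark microglia and other macrophages were followed in mouse cerebellum with and without Astn2. The genes were taken as a list of symbols and found by their Entrez identifiers among the 24100 genes of a count table, where all 33 were present. They were sorted by role into 8 classes, from complement C1q chains to transcription factors. The study compared Astn2 knockout (KO) with wild type (WT) mice at postnatal day 21, and every mouse, WT or KO, carried the transgene Tg(Pcp2-Egfp-L10a). This transgene uses the Purkinje cell promoter Pcp2 to drive an EGFP-tagged ribosomal protein, so that antibodies to GFP pull down ribosomes of Purkinje cells with their bound mRNA, a method called translating ribosome affinity purification (TRAP). Input RNA was the 3% of the cleared homogenate kept back before the pulldown and stands for the whole cerebellum. There were 4 input libraries from WT mice (1 female, 3 male), 3 input libraries from KO mice (2 female, 1 male), 3 TRAP libraries from WT mice (1 female, 2 male) and 4 TRAP libraries from KO mice (2 female, 2 male). The labels do not say that the libraries of a group came from separate animals, so the p-values measure the spread between these libraries, which may be partly technical.

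Microglia arise from yolk sac progenitors, need signals through the receptor Csf1r to survive, and sense their surroundings with purinergic and chemokine receptors such as P2ry12 and Cx3cr1. They make the 3 chains of C1q, which starts the classical complement cascade and tags synapses and debris for removal. Perivascular macrophages, which line vessels at the brain's borders, share many of these genes and add scavenger receptors such as Mrc1 and Cd163. In the cerebellum microglia lie among Purkinje cells, granule cells and glia, and the comparison of TRAP with input asks how much of their RNA was in the Purkinje cell pulldown.

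The libraries held between 18.8 and 54.2 M counts each (1 M is 1e6), and levels are given as counts per 1e6 (CPM) scaled with TMM factors, which correct for differences in RNA composition. Astn2 was at 0.729 to 2.11 CPM in the 7 KO libraries and at 88.7 to 146 CPM in the 7 WT libraries, so every library matched its label. The summed level of 10 Purkinje cell markers in TRAP was 1078% of input in WT and 940% in KO. Over the same libraries the summed level of 8 granule cell markers in TRAP was 20.8% of input in WT and 21.4% in KO. For 8 astroglial markers it was 26.3% and 29.4%, for 8 oligodendrocyte markers 24.1% and 27.9%, and for 8 endothelial markers 36.3% and 46.8%. For 6 choroid plexus markers it was 93.0% in WT and 23.8% in KO, with 17.1 to 411 CPM in 6 of the inputs and 1177 CPM in input KO 2. By the test used below, 1 of these 6 was higher in TRAP and 1 lower in WT, and 1 was higher and 5 lower in KO. Their sum therefore mixes opposite directions. The 33 genes summed to between 2053 and 4672 counts in an input library and between 452 and 874 counts in a TRAP library. Intervals and floors from counts cover counting error only because reads that carry no molecular identifiers can be copies of 1 molecule.

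The markers Cx3cr1, C1qa and P2ry12, themselves members of the list, had between 100 and 361 counts in each input library. Their presence does not test which cells the RNA of the other members came from. Cx3cr1, the fractalkine receptor, was at 5.58, 5.97, 7.06 and 7.33 CPM in the 4 WT inputs and at 5.54, 5.82 and 4.73 CPM in the 3 KO inputs. In TRAP it was at 2.26, 1.52 and 0.746 CPM in WT and at 1.36, 1.65, 2.23 and 0.885 CPM in KO. P2ry12, a receptor for ADP that guides microglial processes, was at 2.92, 3.51, 4.22 and 4.89 CPM in WT inputs and 3.52, 3.66 and 3.88 CPM in KO inputs. In TRAP all 7 values of P2ry12 were under 1 CPM, from 0.398 to 0.938. C1qa, the A chain of C1q, was at 3.89, 3.8, 4.42 and 5.99 CPM in WT inputs and 3.6, 4.95 and 4.17 CPM in KO inputs, and at 1.5, 1.52 and 0.788 CPM in WT TRAP and 1.33, 2.14, 1.7 and 0.664 CPM in KO TRAP. All 3 markers were therefore present in every input library, and none of their TRAP values reached the lowest input value.

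Spi1 (PU.1), one of the 33 genes, is the transcription factor that macrophages depend on, and the core of the sequence it binds is GAGGAA. RefSeq promoter sequences (GRCm38.p6) were found for 24 of the 33 genes, and the 250 bases before each start were searched for GAGGAA and for its reverse complement TTCCTC. The search matched 15 of the 24 genes (62.5%), compared with 25.9% of 27025 genes with such a window. The 15 were Aif1, C1qb, C1qc, Cd68, Csf3r, Ctss, Fcgr1, Fcgr3, Fcrls, Itgam, Laptm5, Mrc1, P2ry13, Ptprc and Trem2. Cd163, Cx3cr1, Fcer1g, Irf8, Ly86, Lyz2, Olfml3, P2ry12 and Siglech had no match in this window. A match describes letters only and is not evidence of binding. The windows of 4 genes are shown 5′ to 3′ on the strand of the gene, with the match in capitals, because C1qb, P2ry13 and Trem2 were lower in TRAP in both genotypes while Fcgr1, which also has the match, was higher. The C1qb window lies at chr4:136886201-136886450 on the minus strand, that of P2ry13 at chr3:59210883-59211132 on the minus strand, that of Trem2 at chr17:48346151-48346400 on the plus strand and that of Fcgr1 at chr3:96293970-96294219 on the minus strand.
C1qb: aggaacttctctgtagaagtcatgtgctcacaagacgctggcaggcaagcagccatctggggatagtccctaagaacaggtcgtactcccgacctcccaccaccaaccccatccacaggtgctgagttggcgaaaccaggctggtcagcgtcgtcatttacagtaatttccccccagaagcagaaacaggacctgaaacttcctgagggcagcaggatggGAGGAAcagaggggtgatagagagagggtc
P2ry13: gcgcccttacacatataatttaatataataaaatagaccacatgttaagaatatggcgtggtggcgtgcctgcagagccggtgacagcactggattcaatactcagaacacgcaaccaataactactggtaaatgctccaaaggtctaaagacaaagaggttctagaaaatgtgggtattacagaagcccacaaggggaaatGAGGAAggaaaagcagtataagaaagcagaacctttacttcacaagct
Trem2: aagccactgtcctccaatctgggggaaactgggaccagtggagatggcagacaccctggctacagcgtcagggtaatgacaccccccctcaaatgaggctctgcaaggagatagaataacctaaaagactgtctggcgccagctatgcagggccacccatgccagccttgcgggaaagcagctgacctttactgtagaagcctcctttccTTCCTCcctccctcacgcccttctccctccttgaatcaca
Fcgr1: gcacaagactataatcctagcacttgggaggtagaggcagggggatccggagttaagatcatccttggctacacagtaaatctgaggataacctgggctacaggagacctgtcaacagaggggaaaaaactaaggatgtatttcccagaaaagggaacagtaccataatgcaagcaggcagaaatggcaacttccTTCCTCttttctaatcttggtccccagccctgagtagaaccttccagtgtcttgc
In these windows the match begins 30 bases before the RefSeq start of the gene in C1qb, 48 in P2ry13, 40 in Trem2 and 55 in Fcgr1. The genes themselves lie at chr4:136880129-136886187 (C1qb), chr3:59207892-59210882 (P2ry13), chr17:48346401-48354147 (Trem2) and chr3:96282909-96293969 (Fcgr1) in the GENCODE M21 annotation of GRCm38, where the start differs from the RefSeq start for C1qb and is the same for the other 3 genes.

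In whole cerebellum the 33 genes were low but measured. Levels between genes were compared as CPM per kilobase of the longest annotated transcript. By this scale 2 C1q chains had the highest means in WT input, and the third was close to Ctss. C1qa was at 4.35 ± 0.975 CPM per kilobase (SD, n = 4), C1qb at 3.96 ± 1.37 and C1qc at 3.61 ± 0.863. Ctss, the lysosomal protease cathepsin S, was at 3.61 ± 1.42 CPM per kilobase, and Tyrobp, the adaptor that passes on signals from Trem2, at 3.1 ± 0.449. The ranges of mean ± SD of these 5 genes overlapped. At the other end were Ptprc (CD45), at 0.152 ± 0.0671 CPM per kilobase, and the perivascular macrophage receptors Cd163 and Mrc1, at 0.201 ± 0.0841 and 0.204 ± 0.105. For Trem2 the annotation decides the value: it was 0.275 CPM per kilobase over a longest transcript of 4784 bases and 1.21 over the longest coding transcript of 1088 bases. Ly86 was likewise at 0.517 and 1.22 CPM per kilobase by these 2 lengths.

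**Figure D1:**
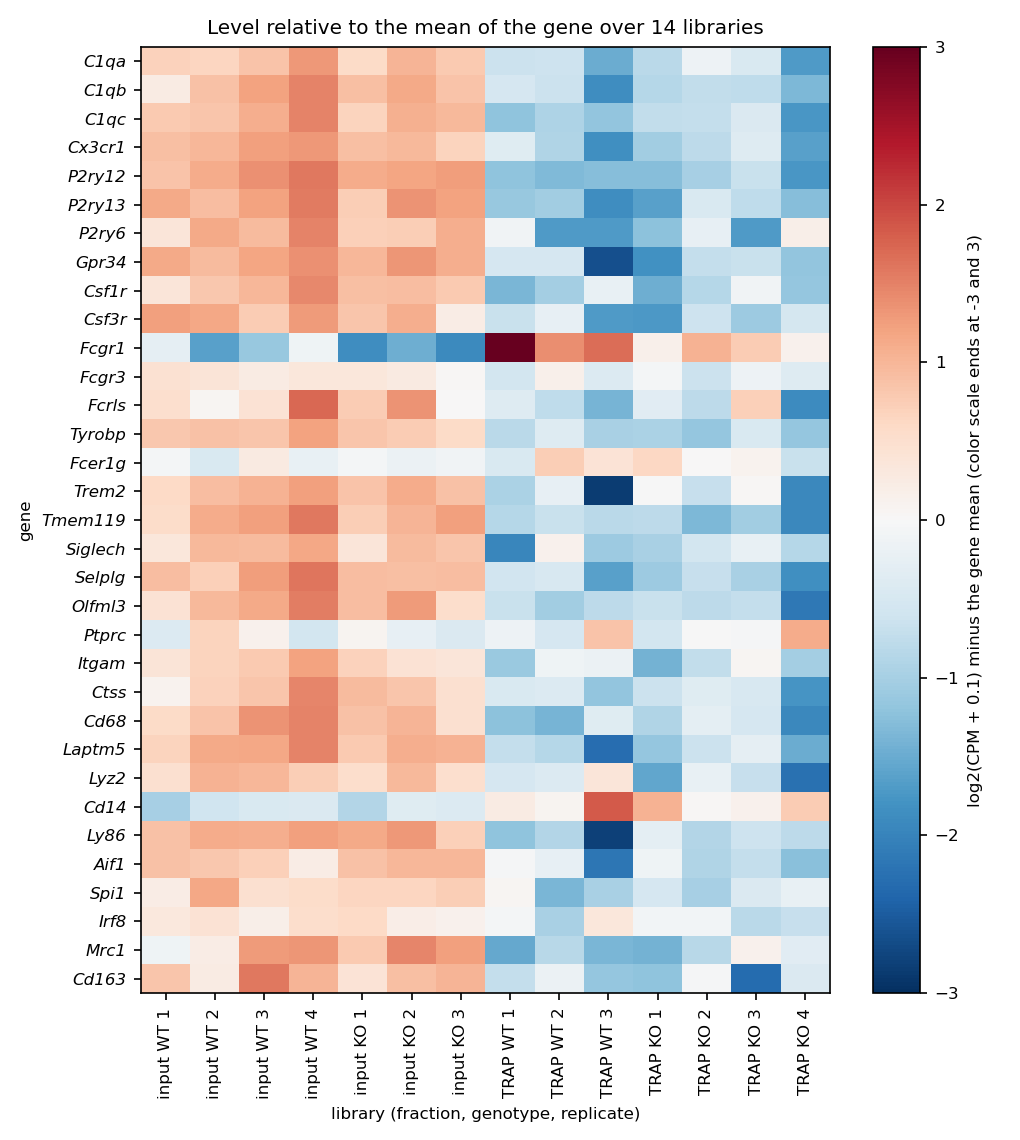
Levels of the 33 genes (rows, in order of role) in the 14 libraries (columns, by fraction and genotype), as log2(CPM + 0.1) minus the mean of the gene, on a color scale from -3 to 3. Most rows are red in the 7 input libraries and blue in the 7 TRAP libraries, while Fcgr1 and Cd14 show the reverse.

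The pulldown held less RNA of most of these genes than the input did. In WT, 28 of the 33 genes were lower in TRAP than in input and 2 were higher by edgeR's quasi-likelihood test at a Benjamini-Hochberg adjusted p under 0.05, and 28 were lower and 2 higher in KO. Among all 16042 genes tested, 38.5% were lower and 37% higher in TRAP in WT, and 39.6% were lower and 36.3% higher in KO. The same 27 genes were lower in both genotypes, the same 2 genes (Fcgr1 and Cd14) were higher in both, and no gene was called in opposite directions. Of the 33 genes, 11 were too low to be kept on the TRAP libraries alone and entered this test through their input level. They are named below with the genotype tests in TRAP, and all of them were called lower in both genotypes. For these 11 the direction was partly fixed by the filter, here, in the median and non-overlap that follow and in the classes below. The median log2 fold change of the 33 genes was -2.04 in WT and -1.87 in KO, beside -0.09 and -0.11 for all genes tested. In 28 genes in WT and in 28 in KO, every TRAP library lay under every input library of the genotype, which was so for 38.2% and 40.2% of all genes tested. These calls are relative to TMM scaling: with library totals alone the median of all genes shifted by -0.82 in WT and -0.73 in KO, and Cd14 no longer passed in either genotype (log2 fold change 0.94 and 0.44).

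Summed over the 33 genes, the level was 77.2 ± 16.7 CPM in WT input (SD, n = 4) and 70.1 ± 5.77 CPM in KO input (SD, n = 3). In TRAP the sum of the 3 WT libraries averaged 38.3 ± 10.9 CPM (SD) and that of the 4 KO libraries 27.5 ± 6.08 CPM (SD), which is 49.7% and 39.2% of input. One gene carried much of the TRAP sum in WT: Fcgr1 made up 23.3% to 54.2% of it in the 3 WT TRAP libraries, 12.1% to 19.0% in the 4 KO TRAP libraries and 1.02% to 3.80% in the 7 inputs. Without Fcgr1 the TRAP sum was 31.3% of input in WT and 33.6% in KO. Between WT and KO inputs, which are bulk RNA, fewer cells of a type and less RNA per cell cannot be told apart.

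**Figure D2:**
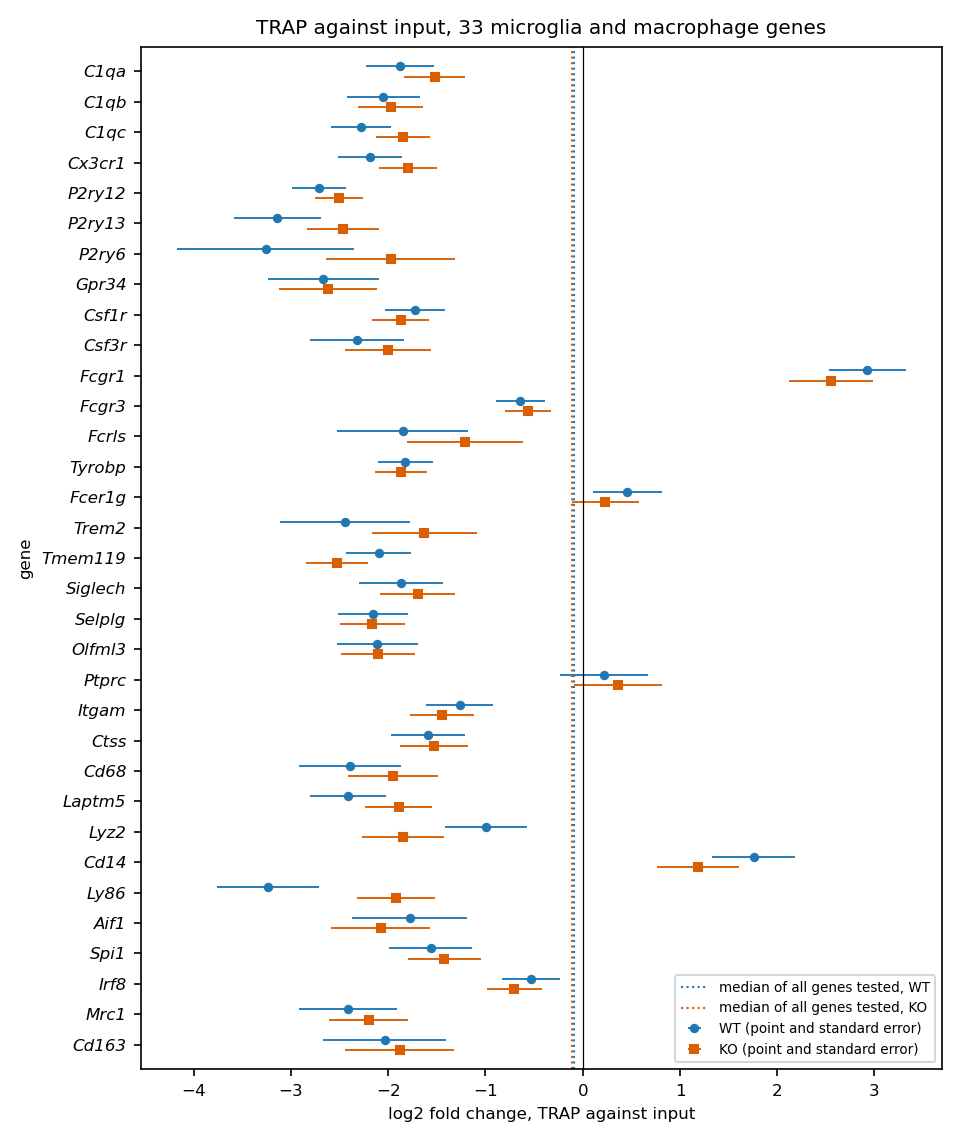
Log2 fold change of TRAP against input for the 33 genes in WT (circles) and KO (squares), with standard errors from edgeR's quasi-likelihood fit and dotted lines at the median of all genes tested. Most points lie between -1.4 and -3.3, and Fcgr1 and Cd14 stand on the right of 0 in both genotypes.

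All 3 C1q chains were lower in TRAP in both genotypes. C1qa had a log2 fold change of -1.88 ± 0.35 (SE) in WT and -1.52 ± 0.32 in KO, with adjusted p-values of 2.45e-04 and 6.00e-04 by edgeR. C1qb was at -2.05 ± 0.37 and -1.97 ± 0.34, and C1qc at -2.28 ± 0.31 and -1.85 ± 0.28. The 3 genes are neighbours on chromosome 4, and their summed level in TRAP was 24.5% of input in WT and 29.3% in KO.

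All 5 G protein coupled receptors were lower in both genotypes, and as a class they had the lowest median, -2.71 in WT and -2.46 in KO. P2ry13, P2ry6 and Gpr34 were too low to be kept on the TRAP libraries alone. Their direction, and with it the class count and median, was partly fixed by the filter. P2ry12 had log2 fold changes of -2.71 ± 0.28 (WT) and -2.51 ± 0.25 (KO), and Cx3cr1 of -2.19 ± 0.33 and -1.79 ± 0.30. P2ry13, a second ADP receptor, was at 1.46 ± 0.289 CPM in WT input and 0.171 ± 0.0769 CPM in WT TRAP, a log2 fold change of -3.14 ± 0.45, and at -2.46 ± 0.37 in KO. Gpr34, a receptor for lysophosphatidylserine, was at -2.67 ± 0.57 and -2.62 ± 0.50. P2ry6, a receptor for UDP linked to phagocytosis, had only 3 counts over the 3 WT TRAP libraries and 95 over the 4 WT inputs. The ratio of input to TRAP was 10.7, with an exact 95% counting interval from 3.55 to 52.8. In KO, P2ry6 had a log2 fold change of -1.97 ± 0.66, and that call was lost without input KO replicate 3 (adjusted p = 0.0576 by edgeR).

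Both cytokine receptors were lower in TRAP. Csf1r, the receptor for colony stimulating factor 1 and interleukin 34, was at 8.0 ± 2.54 CPM in WT input and 2.32 ± 1.04 CPM in WT TRAP, with log2 fold changes of -1.72 ± 0.31 (WT) and -1.87 ± 0.30 (KO). Csf3r, the receptor for granulocyte colony stimulating factor, which neutrophils also make, was at -2.32 ± 0.48 and -2.0 ± 0.44. The exons of Csf1r overlap those of Hmgxb3 on the other strand over 15.1% of their bases, and whether counting used the strand is not given in the sources used here.

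The class of Fc receptors, Trem2 and adaptors was the most divided: 4 of 6 were lower and 1 higher in WT, and 3 were lower and 1 higher in KO. Tyrobp had log2 fold changes of -1.82 ± 0.28 (WT) and -1.87 ± 0.26 (KO). Trem2, a lipid and lipoprotein receptor that signals through Tyrobp, was at -2.44 ± 0.66 in WT and -1.63 ± 0.54 in KO. Fcgr3, a low-affinity receptor for IgG, was lower by a smaller amount, -0.64 ± 0.25 in WT and -0.56 ± 0.24 in KO. The Fcgr3 call did not hold without any one of input WT 1, input WT 2, TRAP WT 1 or TRAP WT 3 in WT (log2 fold change -0.48 at the smallest), nor without any one of 8 libraries in KO (-0.46 at the smallest). Fcrls, a microglial Fc receptor-like protein, passed in WT (-1.85 ± 0.67) and not in KO (-1.21 ± 0.60, adjusted p = 0.0797 by edgeR). The WT call of Fcrls was lost without input WT 4 (log2 fold change -1.33) or TRAP WT 3 (-1.57), and in KO it passed without input KO 3 (-1.65) or TRAP KO 3 (-1.87).

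Among other surface and secreted proteins, 5 of 6 were lower in TRAP in both genotypes. Tmem119, a membrane protein used to tell microglia from blood macrophages, had log2 fold changes of -2.10 ± 0.33 (WT) and -2.53 ± 0.31 (KO). Selplg, the ligand of P-selectin, was at -2.16 ± 0.36 and -2.16 ± 0.33, and Olfml3, a secreted olfactomedin-like protein, at -2.11 ± 0.41 and -2.10 ± 0.38. Siglech, a sialic acid receptor, was at -1.87 ± 0.43 and -1.70 ± 0.39. Itgam (CD11b), an integrin of the complement receptor CR3, was at -1.26 ± 0.34 and -1.45 ± 0.33. Itgam shares 68.7% of its exonic bases with the annotated gene Gm49368 on the same strand, so its count may hold reads assigned between both.

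Of the 7 lysosomal, innate immune and cytoplasmic proteins, 6 were lower in both genotypes and Cd14 was higher. Laptm5, a lysosomal membrane protein, was at 5.44 ± 1.26 CPM in WT input and 1.05 ± 0.553 CPM in WT TRAP, with log2 fold changes of -2.42 ± 0.39 (WT) and -1.89 ± 0.34 (KO). Ctss was at -1.59 ± 0.38 and -1.53 ± 0.35, and Cd68, a scavenger receptor of lysosomes, at -2.39 ± 0.52 and -1.95 ± 0.47. Ly86 (MD-1), a partner of the Toll-like receptor homologue RP105, was at -3.24 ± 0.52 in WT and -1.92 ± 0.40 in KO. This was the largest gap between genotypes in the class, and the interaction did not pass (1.32 ± 0.70, unadjusted p = 0.0827, adjusted p = 1.00 by edgeR). The WT value of Ly86 rested on 3, 5 and 0 counts in the WT TRAP libraries. With a library left out it ranged from -4.18 to -2.53. Aif1 (Iba1), the usual protein marker of microglia in sections, was at -1.78 ± 0.59 and -2.08 ± 0.51. Lyz2, the lysozyme of macrophages and neutrophils, was at -1.0 ± 0.42 in WT and -1.85 ± 0.43 in KO. In WT the Lyz2 call rested on several libraries: it was lost without any one of 8 of the 14, among them TRAP WT 1 (log2 fold change -0.81) and TRAP WT 2 (-0.90).

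The transcription factor Spi1 was lower in TRAP in both genotypes (-1.56 ± 0.42 in WT and -1.42 ± 0.37 in KO). Irf8, a partner of Spi1 in macrophage development, had smaller log2 fold changes and passed in KO (-0.70 ± 0.29, adjusted p = 0.0381 by edgeR) but not in WT (-0.53 ± 0.30, adjusted p = 0.117). Without TRAP WT 3, where Irf8 was at 1.82 CPM against 1.37 and 0.675 in the other WT TRAP libraries, the WT value was -1.05 and passed. Its KO call was lost without any one of input KO 1, input KO 3, TRAP KO 3 or TRAP KO 4 (-0.59 at the smallest). The difference between genotypes was not past the threshold (-0.17 ± 0.41 for the interaction, adjusted p = 1.00 by edgeR). The perivascular macrophage receptors Mrc1, a mannose receptor, and Cd163, the receptor for haemoglobin bound to haptoglobin, were both lower. Mrc1 was at -2.42 ± 0.51 and -2.20 ± 0.41, and Cd163 at -2.04 ± 0.63 and -1.88 ± 0.56.

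Fcgr1, the high-affinity receptor for IgG on macrophages, was the member with the highest mean CPM in TRAP in both genotypes. It was at 2.28, 0.838, 1.21 and 2.52 CPM in the 4 WT inputs and at 0.687, 0.951 and 0.671 CPM in the 3 KO inputs. In TRAP it was at 27.6, 7.48 and 9.04 CPM in the 3 WT libraries and at 3.08, 5.83, 4.81 and 3.05 CPM in the 4 KO libraries. Every TRAP library lay above every input library, in each genotype and over both together. TRAP against input gave log2 fold changes of 2.92 ± 0.40 (WT) and 2.55 ± 0.43 (KO), with adjusted p-values of 1.34e-05 and 1.12e-04 by edgeR. The direction and the call held in each of the alternatives tried. Of the near copies checked, Fcgr2b, an inhibitory Fc receptor, was lower in TRAP (-2.14 ± 0.54 in WT and -1.80 ± 0.46 in KO), and Fcgr4 had 1 count over the 3 WT TRAP libraries against 33 over the 4 WT inputs (ratio of input to TRAP 11.2, exact 95% counting interval 1.87 to 454).

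Cd14, the co-receptor for bacterial lipopolysaccharide, was the other gene higher in TRAP. It was at 0.38, 0.531, 0.587 and 0.608 CPM in WT inputs and 0.416, 0.64 and 0.613 CPM in KO inputs, and at 1.03, 0.90 and 3.28 CPM in WT TRAP and 1.87, 0.877, 0.938 and 1.5 CPM in KO TRAP. The groups did not overlap in either genotype, with log2 fold changes of 1.76 ± 0.42 (WT) and 1.18 ± 0.43 (KO) (adjusted p = 0.00189 and 0.0212 by edgeR). TRAP WT 3 held the highest value, and without it the WT value was 0.86 with an adjusted p of 0.0611. In KO the call was lost without TRAP KO 1 (0.78), input KO 1 (1.06) or input KO 3 (1.12).

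Fcer1g and Ptprc did not differ between fractions past the threshold. Fcer1g, the common gamma chain that Fcgr1 needs for signalling, was at 0.935, 0.674, 1.19 and 0.821 CPM in WT inputs and 0.684, 1.69 and 1.33 CPM in WT TRAP, and at 0.937, 0.853 and 0.89 CPM in KO inputs and 1.56, 0.983, 1.06 and 0.575 CPM in KO TRAP. These values overlapped, and the log2 fold changes were 0.46 ± 0.35 and 0.23 ± 0.34. Ptprc, a phosphatase on all nucleated blood cells, was at 0.614, 1.39, 0.939 and 0.547 CPM in WT inputs and 0.752, 0.563 and 1.62 CPM in WT TRAP, and at 0.895, 0.689 and 0.598 CPM in KO inputs and 0.546, 0.842, 0.821 and 1.95 CPM in KO TRAP. Its log2 fold changes were 0.22 ± 0.46 and 0.36 ± 0.45, and the sign of both genes turned with library totals as the scaling (Fcer1g -0.37 in WT and -0.51 in KO, Ptprc -0.60 and -0.37).

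**Figure D3:**
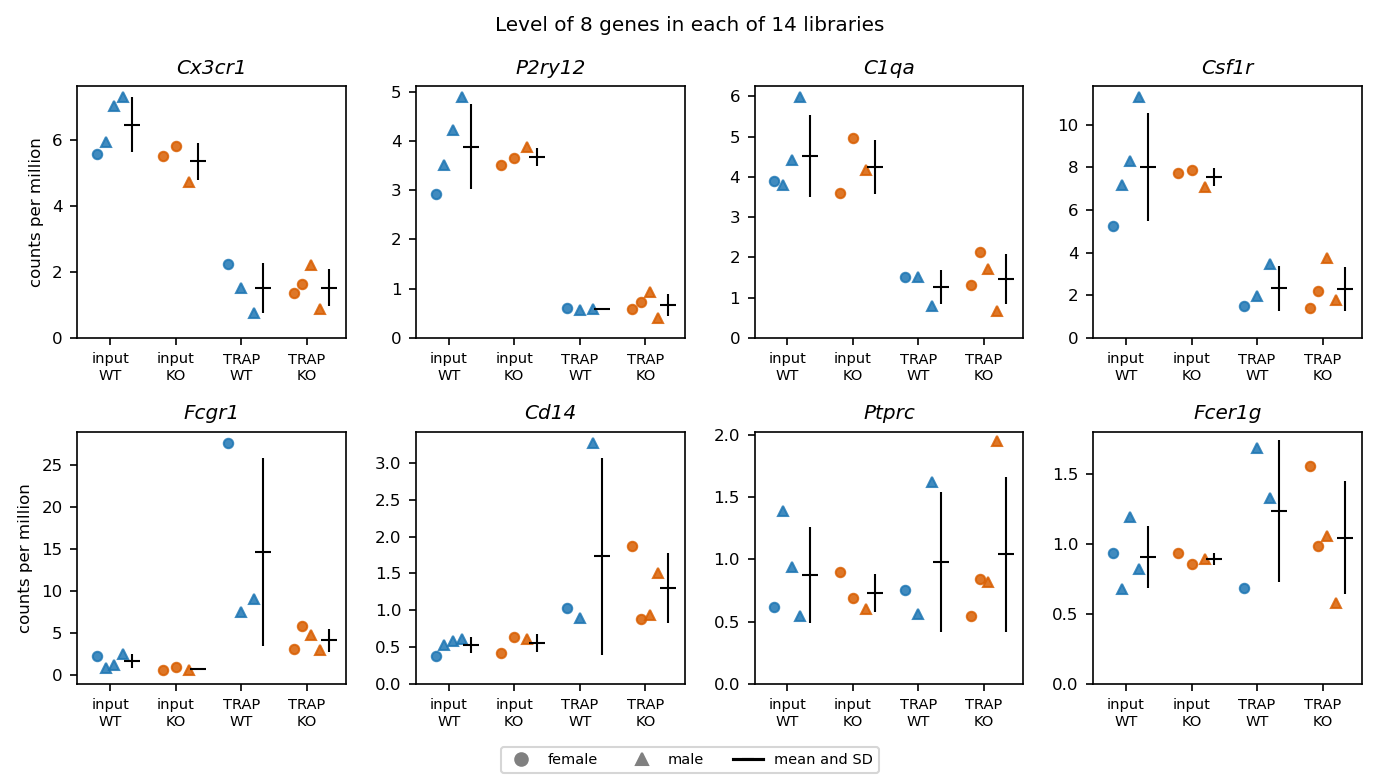
Levels of 8 genes in CPM in each library (circles female, triangles male; blue WT, orange KO; black bars mean and SD) for input and TRAP. Cx3cr1, P2ry12, C1qa and Csf1r are lower in all 7 TRAP libraries, Fcgr1 and Cd14 are higher, and the groups overlap for Ptprc and Fcer1g.

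A further 70 genes of microglial and macrophage biology were examined in 5 groups, of which 64 could be tested. In WT 41 were lower and 6 higher in TRAP, and in KO 41 were lower and 6 higher by edgeR, beside 38.5% lower and 37% higher of all genes tested in WT and 39.6% and 36.3% in KO. Of 32 other microglia-enriched genes, 21 were lower and 1 higher in WT, and 20 lower and 1 higher in KO. Cd33, a sialic acid receptor, had 143 counts over the 4 WT inputs and 0 over the 3 WT TRAP libraries, which makes it at least 16.1-fold lower against a floor of 3 counts over the group. Inpp5d, a lipid phosphatase under many immune receptors, was at -3.19 ± 0.43 in WT and -1.85 ± 0.32 in KO. The only one of this group higher in TRAP was Plek, a substrate of protein kinase C (0.64 ± 0.14 and 0.53 ± 0.14), which is named after its value was seen.

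Of 7 genes tested for ligands of these receptors and for inhibitory signals, a group that also holds the receptors Cd200r1 and Sirpa, 4 were lower in each genotype, and 1 was higher in WT and 2 in KO. Csf1, a ligand of Csf1r, was at 14.3 ± 0.731 CPM in WT input and 2.86 ± 0.91 CPM in WT TRAP (-2.37 ± 0.28). Cx3cl1, the ligand of Cx3cr1, was at -1.59 ± 0.23 in WT and -1.23 ± 0.22 in KO, and Cd200, a ligand that restrains microglia, at -1.68 ± 0.32 and -1.61 ± 0.30. Cd200r1, the receptor for Cd200 and itself a gene of macrophages, was higher in TRAP in both genotypes, 3.0 ± 0.44 in WT and 3.41 ± 0.43 in KO. Il34, the second ligand of Csf1r, was at 0.35 ± 0.21 in WT, which did not pass, and at 0.99 ± 0.21 in KO, which did; it too is named after its value was seen.

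Of the 7 further complement genes tested, 4 were lower and 2 higher in WT and 3 lower and 1 higher in KO, where the share that was lower was near the 39.6% of all genes tested. C4b, a complement component, was lower in both genotypes (-2.16 ± 0.55 in WT and -1.41 ± 0.48 in KO). C1ra, a protease that C1q activates, was higher (2.14 ± 0.39 in WT and 2.28 ± 0.40 in KO), from 0.445 ± 0.0911 CPM in WT input to 1.99 ± 0.914 CPM in WT TRAP. Of 8 activation genes tested, 6 were lower and 1 higher in WT and 7 lower and 1 higher in KO. Spp1 (osteopontin) was at -2.62 ± 0.40 and -1.61 ± 0.35, and Lgals3 (galectin-3) was the 1 higher gene, at 2.22 ± 0.32 and 1.90 ± 0.33. Of 10 border macrophage and antigen presentation genes, 6 were lower in WT and 7 in KO, and 1 was higher. Lyve1, a hyaluronan receptor of border macrophages, had 1 count over the WT TRAP libraries and 60 over the WT inputs, a ratio of input to TRAP of 20.3 with an exact 95% counting interval from 3.5 to 814. H2-Ab1, the beta chain of a class II antigen presentation molecule, was higher in TRAP at 2.30 ± 0.42 in WT and 3.36 ± 0.43 in KO. Its partner chain H2-Aa was at -0.47 ± 0.39 in WT, which did not pass, and at -1.12 ± 0.41 in KO, and it is named after its value was seen.

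In whole cerebellum no gene of the list passed the test between genotypes. The count was 0 of 33 at an adjusted p under 0.05 by edgeR, where 0.0188% of 15997 genes passed. DESeq2's Wald test called 1 of the 33, Fcgr1, beside 292 of the 15997 genes. The 3 genes that edgeR called became 158 without input KO replicate 2, with no member among them, and 1 or 2 without any other single input. At an unadjusted p under 0.05 there were 2 of 33, Fcgr1 and Csf3r, beside 13.7% of all genes tested. The median log2 fold change of the 33 genes was -0.06, with 12 above 0 and 21 below, and the median of all genes tested was -0.01. For no member did every KO input lie on one side of every WT input, which was so for 10.3% of all genes tested. The markers Cx3cr1, C1qa and P2ry12 had log2 fold changes of -0.28 ± 0.16, -0.05 ± 0.21 and 0.05 ± 0.17 (KO against WT, SE). A range of 2 standard errors on either side reached from -0.60 to 0.03 for Cx3cr1, from -0.47 to 0.37 for C1qa and from -0.30 to 0.40 for P2ry12.

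Fcgr1 had the largest of these differences in size, -1.32 ± 0.39 (unadjusted p = 0.00856, adjusted p = 0.234 by edgeR; 0.0455 by DESeq2, and 0.0455 to 1.00 over the alternatives). The 3 KO inputs (0.671 to 0.951 CPM) overlapped the WT inputs at a single library, WT 2, at 0.838 CPM. Csf3r was at 1.29, 1.23, 0.90 and 1.34 CPM in WT inputs and 0.958, 1.16 and 0.584 CPM in KO inputs, a log2 fold change of -0.65 ± 0.27 (unadjusted p = 0.0399, adjusted p = 0.344 by edgeR). Without KO replicate 3, which held the lowest value, it was -0.25. The marker Cx3cr1 was next by unadjusted p, followed by Mrc1, Fcgr3 and Tyrobp at 0.70 ± 0.42, -0.25 ± 0.17 and -0.26 ± 0.20, and none passed.

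Blood cell markers varied between the same libraries. Neutrophil markers (S100a8, S100a9, Ly6g, Camp, Ngp and Retnlg) summed to 1.02, 11.1, 3.89 and 1.73 CPM in the 4 WT inputs and to 0.916, 0.968 and 1.98 CPM in the 3 KO inputs. In TRAP they summed to 0.273, 3.04 and 0.539 CPM in WT and to 0.234, 0.281, 0.411 and 0.265 CPM in KO. Of these 6 genes 0 to 2 were at 0 counts in an input library and 1 to 4 in a TRAP library, and Ly6g was at 0 in 6 of the 7 TRAP libraries. Red cell markers summed to 1710 to 9373 CPM in WT inputs and 457 to 3395 CPM in KO inputs, and to 451 to 2723 CPM in WT TRAP and 105 to 875 CPM in KO TRAP. Between genotypes in input, 0 of 3 neutrophil and 0 of 3 red cell genes tested had an unadjusted p under 0.05 by edgeR, beside 13.7% of all genes. In TRAP 1 of 3 red cell genes did, beside 1.5% of all genes. Group means of Fcgr1 and of both blood sums were higher in WT than in KO in both fractions. Within WT the order was not the same: WT 2 had the highest blood sums and the least Fcgr1, in input and in TRAP. The part of blood RNA in the Fcgr1 and Csf3r values was not tested.

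In TRAP, 22 of the 33 genes were high enough to be tested between genotypes. The 11 left out (P2ry13, P2ry6, Gpr34, Csf3r, Siglech, Cd68, Ly86, Aif1, Spi1, Mrc1 and Cd163) had mean levels of at most 0.344 CPM in WT and 0.383 CPM in KO. None of the 22 passed an adjusted p of 0.05 by edgeR, where 0.00707% of 14145 genes passed, and Fcgr1 alone had an unadjusted p under 0.05, beside 1.5% of all genes tested. DESeq2's Wald test and limma with quality weights each called 1 of the 22, Fcgr1, beside 3 and 61 of the 14145 genes. The median log2 fold change of the 22 was -0.10, beside 0.00 for all genes tested. Cx3cr1, C1qa and P2ry12 were at 0.02 ± 0.44, 0.11 ± 0.44 and 0.17 ± 0.43, and the next genes by unadjusted p were Lyz2 (-1.05 ± 0.64), Tmem119 (-0.60 ± 0.48), Irf8 (-0.40 ± 0.41), Selplg (-0.41 ± 0.48) and Fcrls (0.58 ± 0.72). The standard errors of the 22 genes ranged from 0.37 to 0.99.

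For Fcgr1 every KO TRAP library (3.05 to 5.83 CPM) lay below every WT TRAP library (7.48 to 27.6 CPM), which was so, in either direction, for 4.49% of all genes tested and for no other member. The log2 fold change was -1.75 ± 0.38, with an unadjusted p of 0.00147 and an adjusted p of 1.00 by edgeR. It was 0.0395 by DESeq2 and 0.00324 by limma with quality weights, and ranged up to 1.00 over the alternatives. The highest value was that of WT replicate 1, the only female of the WT TRAP group, and without it the log2 fold change was -1.06. Within females Fcgr1 was at 27.6 CPM in the 1 WT TRAP library and at 3.08 and 5.83 CPM in the 2 KO libraries. Within males it was at 7.48 and 9.04 CPM in WT and at 4.81 and 3.05 CPM in KO. Choroid plexus markers in TRAP summed to 118, 195 and 205 CPM in the 3 WT libraries. In the 4 KO libraries they summed to 88.1 to 108 CPM, so that here too every KO library lay below every WT library. Between TRAP and input 1 of these 6 markers was higher in each genotype, and 1 was lower in WT and 5 in KO by edgeR. The sum therefore mixes opposite directions and is not a measure of choroid plexus RNA alone. Red cell markers overlapped between the genotypes in TRAP, and their part and that of choroid plexus RNA in the Fcgr1 difference were not tested.

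**Figure D4:**
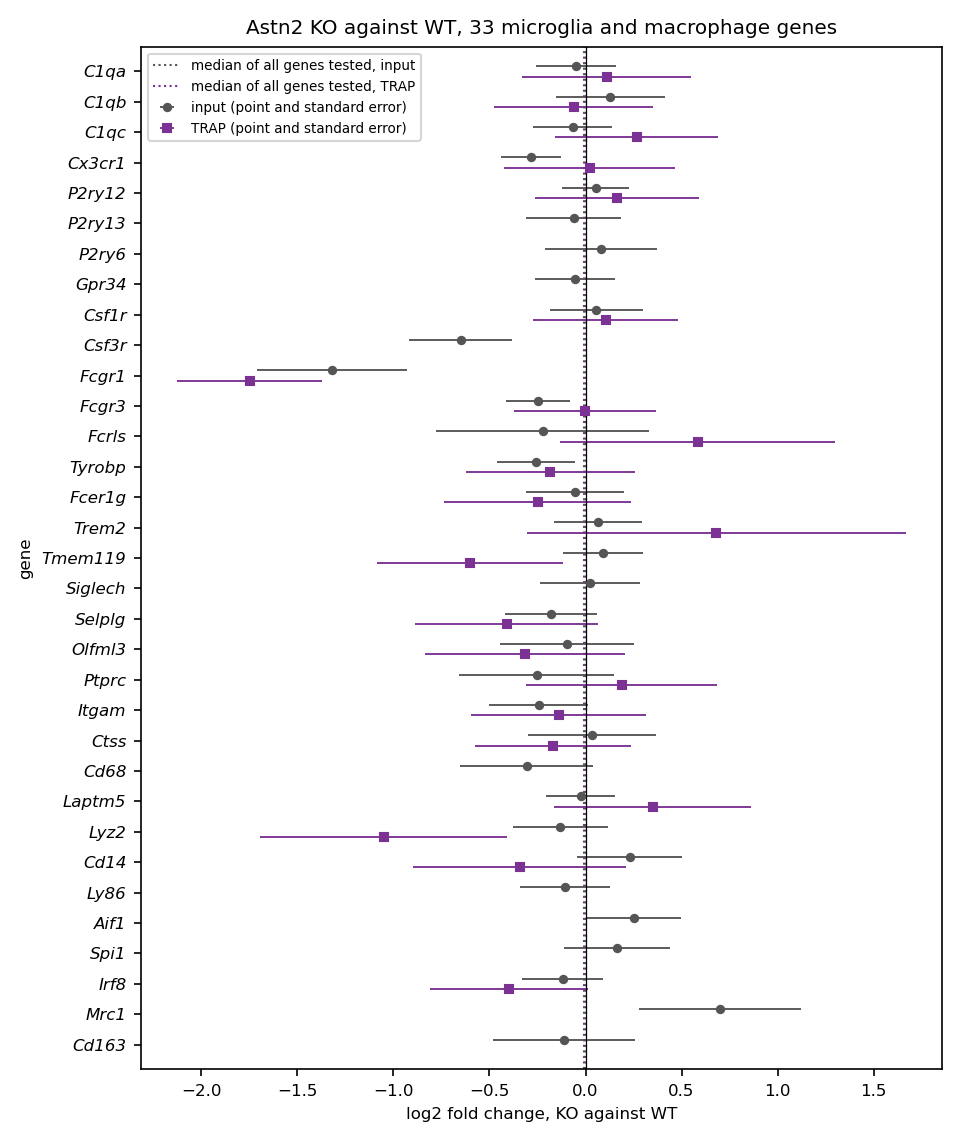
Log2 fold change of KO against WT for the 33 genes in input (gray circles) and, for the 22 tested, in TRAP (purple squares), with standard errors from edgeR's quasi-likelihood fit. Most points lie within 0.5 of 0, and Fcgr1 is the farthest to the left in both fractions.

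The change between fractions did not differ by genotype past the threshold for any member. The genotype by fraction interaction gave 0 calls among the 33 genes by edgeR, as among all genes tested (0%), and 0 at an unadjusted p under 0.05, beside 2.68% of all genes tested. For Fcgr1 it was -0.37 ± 0.58 and for Lyz2 -0.85 ± 0.60. Of the 70 further genes, 0 passed between genotypes in input (63 tested, 4 at an unadjusted p under 0.05, beside 13.7% of all genes) and 0 in TRAP (38 tested, 2 at an unadjusted p under 0.05, beside 1.5% of all genes).

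The level of the members also varied between libraries of 1 fraction. Input WT 4 held the highest of the 7 input values for 22 of the 33 genes, with a sum of 99.3 CPM, beside 12.1% of all genes tested between fractions. Input WT 1 held the lowest for 14 genes, with a sum of 60.0 CPM, and input KO 3 for 10, beside 13.99% and 17.2% of all genes. In TRAP, KO 4 was lowest for 12 genes, with a sum of 20.0 CPM, and WT 3 for 8, beside 17.6% and 30.0% of all genes. The highest TRAP values were spread over all 7 libraries, with at most 8 genes in 1 library. The spread between WT inputs in the summed level (60.0 to 99.3 CPM) was wider than the gap between the WT and KO input means, and the KO inputs (65.9 to 76.6 CPM) lay inside it.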

How the data were processed

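RNA of 14 cerebellar libraries was compared. The authors deposited raw counts per gene, in whole numbers whose total differs between libraries. The submitters' processing notes name the genome build mm10 and Salmon 0.8.2, without saying how the table was made, and the strand setting is not given in the sources used here. Entrez identifiers were given symbols from the RefSeq table of GRCm38.p6 (24045 of 24100 genes). All 14 columns matched a sample label, and groups, sex and replicate numbers came from the labels.

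Tests used edgeR 4.0.16 (quasi-likelihood, TMM factors, filterByExpr, two-sided, Benjamini-Hochberg over all genes tested, threshold 0.05) in R 4.3.3. The fractions, and the interaction of genotype with fraction, were compared in a fit of all 14 libraries with group and sex, and KO against WT on the 7 libraries of a fraction with sex. All members could be named in TRAP against input. Between genotypes, the 3 markers and the 6 members with the smallest unadjusted p were named, with any member that passed or whose groups did not overlap. Other genes were named when they passed, up to 4 a group by size of change. The scripts were tested on simulated data. Levels are CPM, mean ± SD; lengths and coordinates came from GENCODE M21. The members and lists were chosen with earlier results of these data known. Alternatives were DESeq2 1.42.0 size factors and Wald test, library totals, 2 other count filters, no sex term, limma 3.58.1 quality weights, other sets of libraries, a replicate block and each library left out; sums without Fcgr1 or Cd14, another length and values within each sex were chosen after seeing the data. Protein sequences were not analysed here.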

Additional observations from a re-analysis of the deposited data

Results flagged for a closer look

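Among 68 values tested for a library far from the others of its group (33 genes in the groups of 4 libraries, and their sums), 1 was found, where chance gives about 1 in 20. Olfml3 was at 0.133 CPM in TRAP KO replicate 4 and at 0.491 to 0.546 CPM in the other 3 KO TRAP libraries. On log2(CPM + 1) the gap took up 0.884 of the whole range, which is past Dixon's 95% critical value for 4 libraries. The far value rests on only 3 counts. The same library held the lowest TRAP value of 12 of the 33 genes.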

How the results depend on the processing

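With a mean count of at least 50, 14 members were tested and all 14 passed between TRAP and input in each genotype (13 lower, 1 higher). Of all 13013 genes tested so, 5531 were lower and 4778 higher in WT, and 5593 and 4714 in KO. Leaving out each library in turn gave 28 to 30 calls in WT and 27 to 30 in KO, and no calls in the genotype comparisons and the interaction. Over all genes these fits called from 11556 of 15944 to 12350 of 16255 in WT and from 11282 of 16250 to 13052 of 16255 in KO. DESeq2's Wald test gave 1 call between genotypes in input and 1 in TRAP, and quality weights 1 in TRAP, each of them Fcgr1. Over all genes, edgeR called 3 of 15997 between inputs (1 to 158 with a library left out, the highest without input KO replicate 2) and DESeq2 292 of 15997. In TRAP they called 1 and 3 of 14145, and quality weights called 61.

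The replicate block gave 28 calls in WT and 26 in KO, beside 11593 and 11442 of all 15996 genes tested. The numbers were not taken to pair samples, since no label says that they do. Deviations of same-numbered input and TRAP libraries correlated at 0.242, 0.227 and 0.0891 in WT and at 0.202, 0.178 and -0.0447 in KO. Same-numbered input and TRAP libraries of a genotype were also of the same sex. Correlations between libraries with different numbers were not computed, so these values cannot decide whether the samples are paired. Under the block the values of Ptprc (WT, -0.015) and C1qa (input, 0.057) turned sign, and Trem2, Cd14, Fcgr3 and Irf8 in KO and Fcrls and Fcgr3 in WT no longer passed. With quality weights the Spi1 and Fcrls calls in WT were lost, while Fcrls in KO and Irf8 in WT passed. Fcgr3 no longer passed when only the libraries of the same genotype were fitted (adjusted p = 0.0531 in WT and 0.0593 in KO by edgeR). Without a low-count filter the Fcgr3 call in KO was also lost (adjusted p = 0.0655 by edgeR).

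The log2 ratio of summed levels, TRAP over input, was -1.01 in WT and -1.35 in KO. With library totals it was -1.82 and -2.09. As a mean of log2(CPM + 1) it was -0.71 in KO, and of log2(CPM + 0.1) -1.46 in WT. Without Fcgr1 it was -1.68 in WT, and without Fcgr1 and Cd14 -1.77 in WT and -1.64 in KO. With each library left out the WT value ranged from -1.27 to -0.86 and the KO value from -1.47 to -1.23. KO over WT in TRAP was -0.48 for the sum, -0.043 and -0.0056 for the 2 log means, -0.021 without Fcgr1 and 0.0058 without Fcgr1 and Cd14. Left-out libraries gave -0.60 to -0.22 in TRAP and -0.24 to 0.0053 in input.

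Values near 0 turned sign. TRAP against input in WT: Fcer1g -0.37 (library totals) and -0.096 (quality weights), Ptprc -0.60 and -0.17, and -0.36 to 0.50 with a library left out. In KO: Fcer1g -0.51 and Ptprc -0.37 (library totals), and -0.088 to 0.44 and -0.059 to 0.61 with a library left out. KO against WT in input, with a library left out: C1qa -0.20 to 0.16, Cx3cr1 -0.55 to 0.046, P2ry12 -0.14 to 0.32 and Tyrobp -0.47 to 0.020; P2ry12 was -0.095 without sex. In TRAP: C1qa -0.25 to 0.40, Cx3cr1 -0.46 to 0.48, P2ry12 -0.19 to 0.43, Fcrls -0.56 to 1.13 and Irf8 -0.63 to 0.094; with quality weights Cx3cr1 was -0.35 and Fcrls -0.18. The cause was not tested.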

Other observations

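Among the 70 further genes, 4 had an unadjusted p under 0.05 between KO and WT inputs, a smaller share than the 13.7% of all genes tested, and they are named after their values were seen. Csf1, the growth factor that signals through Csf1r, was at 14.3 ± 0.731 CPM in WT inputs (SD, n = 4) and 11.1 ± 1.22 CPM in KO inputs (SD, n = 3), a log2 fold change of -0.44 ± 0.10 (unadjusted p = 0.00152, adjusted p = 0.183 by edgeR's quasi-likelihood test). Slc2a5, the fructose transporter of microglia, was at 0.381 ± 0.0366 and 0.16 ± 0.088 CPM (-1.64 ± 0.42, adjusted p = 0.20 by edgeR). Cd300a, an inhibitory lipid receptor, was at -0.55 ± 0.24 and H2-Ab1 at 0.60 ± 0.26, and none of the 4 passed after adjustment.

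In TRAP 2 of the further genes had an unadjusted p under 0.05 between genotypes, beside 1.5% of all genes tested, both of class II antigen presentation and in opposite directions. H2-Ab1 was at 3.74 ± 2.78 CPM (SD) in the 3 WT libraries and 10.5 ± 3.89 CPM (SD) in the 4 KO libraries, and Cd74, the invariant chain, at 1.24 ± 0.389 and 0.601 ± 0.372 CPM. Their log2 fold changes were 1.75 ± 0.54 and -1.32 ± 0.54, with adjusted p-values of 1.00 and 1.00 by edgeR. In TRAP 11 of the 33 members were too low to be tested between genotypes.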
